A study of Mus musculus with 16 samples.

Results

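Dynlt1f, 9030025P20Rik, Crebzf, and Gm49179 are 4 of the 19999 genes counted in single nuclei from the medial prefrontal cortex (PFC) of 16 male mice. They were chosen by their measured values, because their counts, summed per mouse, were lower than those of WT air-exposed control mice after alcohol or in several groups. The comparisons with WT control mice are therefore given as a description without a test, and tests are reported only for 3xTg-AD alcohol mice against the air-exposed 3xTg-AD mice, for 3xTg-AD alcohol against WT alcohol mice, and for differences between cell classes within a mouse. The first 2 of these share the 3xTg-AD alcohol mice and are not independent of each other. Nor are they independent of the choice, since low values in these alcohol-exposed mice helped to select the genes, so a lower value in 3xTg-AD alcohol than in 3xTg-AD mice was favored by it, and the p-values of these comparisons are not independent evidence of their direction. All 4 genes passed the filter on low counts when all nuclei of a mouse were summed.

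Each of the 4 groups held 4 mice, aged 22 weeks per the labels. WT control mice (strain label B6;129) and 3xTg-AD mice breathed air only and were given pyrazole, which inhibits alcohol dehydrogenase, dissolved in saline. WT alcohol and 3xTg-AD alcohol mice received ethanol with pyrazole and then intermittent alcohol vapor over repeated cycles, so that pyrazole was common to all groups. Per the authors, the PFC was profiled more than a week after the last vapor exposure and after water maze testing, not during intoxication. 3xTg-AD mice model Alzheimer's disease and carry mutant human APP and tau transgenes under a neuronal Thy1 promoter. They also carry a knock-in presenilin mutation. No human transgene sequence was counted, so the genotype labels could not be checked against one. Each mouse gave 4955 to 9096 nuclei and 9622031 to 17544364 unique molecular identifiers (UMIs).

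Cytoplasmic dynein is the motor that carries cargo along microtubules toward their minus ends, in neurons from axons and dendrites to the cell body, and its Tctex-type light chains, among them the products of the Dynlt1 genes, bind the intermediate chains of the motor and some of its cargo. Crebzf encodes a leucine zipper protein, also called SMILE or Zhangfei, that binds the host cell factor HCF-1, represses several nuclear receptors, and has been tied to the unfolded protein response. 9030025P20Rik is a protein-coding gene without an established function, and Gm49179 is annotated as an antisense RNA.

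In the GRCm38 assembly (mm10), Dynlt1f (ENSMUSG00000095677) lies at chr17:6646602-6655900 on the minus strand, in a cluster with Dynlt1a (chr17:6306340-6317500), Dynlt1b (chr17:6430112-6436296), and Dynlt1c (chr17:6601671-6609774). Dynlt1a, Dynlt1b, Dynlt1c, and Dynlt1f are near-identical copies. Their coding sequences hold 339 bases each, and those of Dynlt1a, Dynlt1c, and Dynlt1f were identical throughout, whereas Dynlt1b differed by 1 base, at position 21 counted from the A of the start codon (C21A, Dynlt1a to Dynlt1b). The first 80 coding bases are shown because they hold the only base by which the coding sequences differ, which is in capitals (GENCODE transcripts, 5′ to 3′). Each run spans introns, at chr17:6311822-6317400 (minus strand) in Dynlt1a, chr17:6430212-6435018 (plus) in Dynlt1b, chr17:6601810-6606622 (plus) in Dynlt1c, and chr17:6650216-6655800 (minus) in Dynlt1f.
Dynlt1a: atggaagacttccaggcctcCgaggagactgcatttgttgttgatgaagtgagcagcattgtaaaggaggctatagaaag
Dynlt1b: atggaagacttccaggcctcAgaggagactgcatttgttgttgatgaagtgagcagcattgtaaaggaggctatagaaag
Dynlt1c: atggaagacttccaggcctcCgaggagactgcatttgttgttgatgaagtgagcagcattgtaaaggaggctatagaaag
Dynlt1f: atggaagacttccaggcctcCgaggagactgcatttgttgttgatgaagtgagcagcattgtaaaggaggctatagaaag

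The likeness of the Dynlt1 genes bears on what a count assigned to Dynlt1f means. Of the 3704 different stretches of 90 bases in the Dynlt1f transcripts, 80.1% also occurred in a transcript of another gene, 74.2% in Dynlt1c and 49.6% in Dynlt1a. The 3′ end, from which 3′ libraries draw many of their reads, was searched in 1 reference transcript per gene, of 771 bases in Dynlt1f. In the last 400 bases of that transcript, 221 of 311 such stretches were shared with another gene. The counts were 0 of 311 in Dynlt1a and 311 of 311 in both Dynlt1b and Dynlt1c. The ends of other transcripts were not searched. How reads that fit several copies were counted is not given in the sources used here, so the values of Dynlt1f, Dynlt1b, and Dynlt1c are uncertain as values of single genes. The copies were alike upstream of the gene as well. Over the 192 bases that the RefSeq promoter windows of both genes cover, Dynlt1f (chr17:6655890-6656081, minus strand) and Dynlt1c (chr17:6601529-6601720, plus strand) differed at 3 bases and were 98.4% identical (GRCm38.p6, differing bases in capitals).
Dynlt1f: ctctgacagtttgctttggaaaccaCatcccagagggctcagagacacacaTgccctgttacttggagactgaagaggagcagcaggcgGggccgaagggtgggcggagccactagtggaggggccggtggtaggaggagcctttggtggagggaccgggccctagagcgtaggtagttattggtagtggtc
Dynlt1c: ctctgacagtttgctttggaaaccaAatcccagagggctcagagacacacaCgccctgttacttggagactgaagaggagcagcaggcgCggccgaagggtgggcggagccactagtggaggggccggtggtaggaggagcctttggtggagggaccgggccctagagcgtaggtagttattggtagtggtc

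9030025P20Rik (ENSMUSG00000116953) lies on the same chromosome at chr17:14978468-14991572 on the plus strand and has 12 exons and 1314 coding bases in its reference transcript. It too has relatives nearby. Of its 4082 different stretches of 90 bases, 54.0% also occurred in Ermard, which encodes an ER membrane-associated RNA degradation protein, and 28.5% in Gm3435. In the last 400 bases of the reference transcript, the only one searched at its end, 92 of 311 stretches were shared. The first 150 coding bases (chr17:14978894-14979644, across introns) are shown to identify the transcript, with the start codon in capitals.
9030025P20Rik: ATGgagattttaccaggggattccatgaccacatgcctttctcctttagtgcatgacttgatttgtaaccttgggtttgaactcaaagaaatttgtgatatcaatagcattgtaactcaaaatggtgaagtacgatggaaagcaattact

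Neither Crebzf nor Gm49179 shared a stretch of 90 bases with a transcript of another annotated gene when both were read 5′ to 3′. The opposite strand was not searched. Crebzf (ENSMUSG00000051451) lies at chr7:90442729-90447994 on the plus strand, and its reference coding transcript is a single exon with 1074 coding bases. The RefSeq promoter window of Crebzf (chr7:90442531-90442830) is shown because members of the CREB/ATF family, to which its product is related, bind the cAMP response element. The short core of that element, TGACG, searched on both strands, occurred once, on the minus strand, and is in capitals as CGTCA. It occurred in 20.8% of 32851 RefSeq promoter windows of the same length, and neither the Dynlt1f nor the Dynlt1c window held it.
Crebzf: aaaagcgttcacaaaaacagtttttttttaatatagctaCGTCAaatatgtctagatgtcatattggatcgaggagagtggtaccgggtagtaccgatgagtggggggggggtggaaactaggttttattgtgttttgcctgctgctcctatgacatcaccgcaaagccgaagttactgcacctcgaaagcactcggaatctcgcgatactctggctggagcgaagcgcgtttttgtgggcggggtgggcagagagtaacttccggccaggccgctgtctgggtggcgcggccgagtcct

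Gm49179 (ENSMUSG00000115718) is a single exon of 4979 bases at chr14:118875882-118880860 on the plus strand. The exon lies within Dzip1 (chr14:118875520-118925460), which is transcribed from the minus strand and encodes a zinc finger protein of the basal body of cilia. Whether the counts were made by strand is not given in the sources used here, and without strand the reads of Gm49179 and Dzip1 cannot be told apart where they overlap. The last 150 bases of Gm49179 (chr14:118880711-118880860) are shown because 3′ libraries draw reads from the end of a transcript, and they hold no run of 6 or more A.
Gm49179: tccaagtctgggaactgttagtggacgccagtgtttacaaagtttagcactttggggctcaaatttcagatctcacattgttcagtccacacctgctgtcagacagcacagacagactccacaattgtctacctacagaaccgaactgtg

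Of the 4 genes, Dynlt1f had the largest fold changes relative to WT control mice in both groups exposed to alcohol. Levels are given as counts per 1000000 UMIs of a mouse (CPM), scaled by the TMM method of edgeR, with all nuclei of a mouse summed. Dynlt1f was at 161.5, 109.6, 129.9, and 81.7 CPM in WT control mice 26, 27, 28, and 36, at 34.4, 35.1, 19.6, and 34.2 CPM in WT alcohol mice 6, 7, 17, and 18, at 61.1, 85.0, 65.7, and 76.5 CPM in 3xTg-AD mice 12, 13, 14, and 21, and at 49.8, 26.96, 26.1, and 25.6 CPM in 3xTg-AD alcohol mice 4, 31, 33, and 34. Every mouse exposed to alcohol was lower than every control mouse of either genotype, and the 3xTg-AD mice lay between, overlapping WT control mice only at mouse 36. The counts behind these levels were 311 to 1999 UMIs per mouse, and in such sums fewer cells of a type and less RNA per cell cannot be told apart.

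The group means of Dynlt1f were 120.7 ± 33.6 CPM in WT control, 30.8 ± 7.51 in WT alcohol, 72.1 ± 10.8 in 3xTg-AD, and 32.1 ± 11.8 in 3xTg-AD alcohol mice (SD, n = 4 mice each). Relative to WT control mice, the fitted log2 fold change was -1.98 ± 0.24 (SE) in WT alcohol, -0.74 ± 0.23 in 3xTg-AD, and -1.91 ± 0.24 in 3xTg-AD alcohol mice, values that the choice of the gene used. Dynlt1f also fell in 3xTg-AD alcohol versus 3xTg-AD mice, the former being among the mice whose low values were used to select it, by 1.17 on the log2 scale (SE 0.24, adjusted p = 0.0369, quasi-likelihood test of edgeR with Benjamini-Hochberg adjustment over 16767 genes). The 2 mouse groups did not overlap. How many of all genes have groups that do not overlap was not counted, so a lack of overlap, here and elsewhere, is a description only. The 2 groups exposed to alcohol overlapped, and their difference was 0.06 ± 0.24 (adjusted p = 0.926, edgeR).

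The call for Dynlt1f in 3xTg-AD alcohol versus 3xTg-AD mice was lost, with no gene of the table called, when 3xTg-AD mouse 13 or 21 or 3xTg-AD alcohol mouse 31, 33, or 34 was left out (adjusted p from 0.119 to 0.157), whereas the fold change stayed between -1.46 and -1.08 over the 16 fits that each left out 1 mouse.

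**Figure D1:**
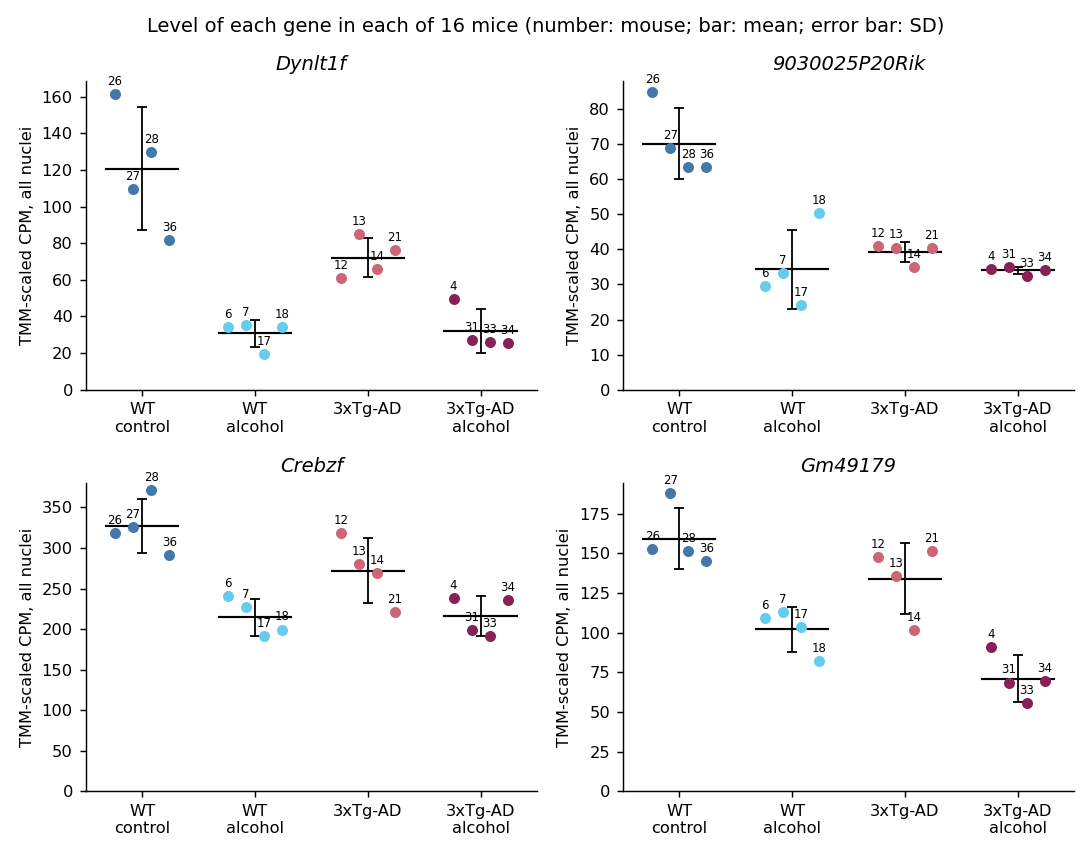
Level of each of the 4 genes (vertical axes, TMM-scaled CPM over all nuclei) in the 4 groups, with 1 numbered point per mouse, bars for group means, and error bars for the SD over 4 mice. The WT control mice lie above the alcohol-exposed mice of both genotypes, as the choice of the genes favored, and 3xTg-AD mice overlap WT control mice for the other 3 genes but lie below all of them for 9030025P20Rik.

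The other Dynlt1 copies differed less between groups or had few UMIs. Dynlt1a is the copy whose reference transcript has a distinct 3′ end. It was at 68.6 ± 6.39 CPM in WT control, 52.7 ± 6.20 in WT alcohol, 68.6 ± 8.53 in 3xTg-AD, and 62.1 ± 7.47 in 3xTg-AD alcohol mice (SD, n = 4). None of its 5 group comparisons passed the test (lowest adjusted p = 0.255, edgeR, for WT alcohol versus WT control mice at a log2 fold change of -0.38 ± 0.12). Dynlt1c had 30 to 101 UMIs per mouse and group means of 3.23 to 4.71 CPM. Dynlt1b had at most 48 UMIs in any mouse, with group means of 0.937 to 2.30 CPM. Neither passed the test in any comparison.

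The UMIs counted for Dynlt1a, Dynlt1b, Dynlt1c, and Dynlt1f were also added, so that the division of counted reads among these copies does not affect the sum. Reads that fit several copies and were not counted at all would still be missing from it. The sum was 195.5 ± 31.6 CPM in WT control, 89.0 ± 12.98 in WT alcohol, 145.4 ± 17.3 in 3xTg-AD, and 101.2 ± 16.2 in 3xTg-AD alcohol mice (SD, n = 4). The sum kept the order of WT control, 3xTg-AD, and alcohol-exposed mice, which the choice of Dynlt1f favored because Dynlt1f is part of the sum. The choice also favored the shares of Dynlt1f that follow, and these depend on how reads were divided among the copies. Dynlt1f made up 60.8% ± 7.53 of the summed UMIs in WT control, 34.4% ± 5.79 in WT alcohol, 49.5% ± 2.72 in 3xTg-AD, and 31.1% ± 6.45 in 3xTg-AD alcohol mice. The lowest share in a WT control mouse (52.7%) was above the highest share in a mouse exposed to alcohol (40.5%). Dynlt3, a light chain gene outside this cluster, was highest in WT alcohol mice (71.0 ± 4.99 CPM against group means of 57.0 to 57.7 CPM elsewhere), and did not pass the test in any comparison (lowest adjusted p = 0.215, edgeR).

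**Figure D2:**
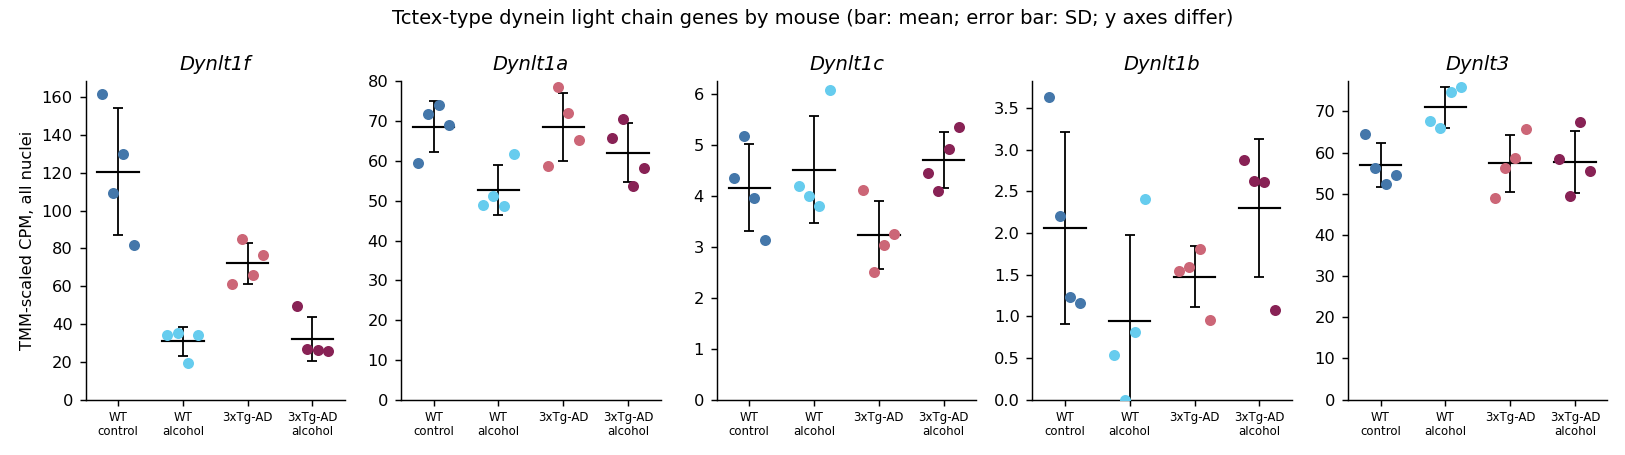
Levels of Tctex-type dynein light chain genes (vertical axes, TMM-scaled CPM over all nuclei, with a different scale in each panel) in the 4 groups, with 1 point per mouse, bars for group means, and error bars for the SD over 4 mice. Dynlt1f falls from a mean of 120.7 CPM in WT control mice to 30.8 CPM in WT alcohol mice, while Dynlt1a spans group means of 52.7 to 68.6 CPM.

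Crebzf was at 318.7, 326.2, 371.4, and 290.9 CPM in WT control mice 26, 27, 28, and 36, at 240.5, 226.9, 191.8, and 199.5 CPM in WT alcohol mice 6, 7, 17, and 18, at 318.1, 279.7, 269.4, and 221.6 CPM in 3xTg-AD mice 12, 13, 14, and 21, and at 238.8, 198.9, 191.7, and 235.7 CPM in 3xTg-AD alcohol mice 4, 31, 33, and 34. All mice exposed to alcohol lay below all WT control mice, whereas the 3xTg-AD mice spread from the alcohol-exposed to the WT control range. The counts were 2273 to 4270 UMIs per mouse, and thus larger than those of the other 3 genes. The log2 fold change relative to WT control mice was -0.61 ± 0.12 (SE) in WT alcohol, -0.27 ± 0.12 in 3xTg-AD, and -0.60 ± 0.12 in 3xTg-AD alcohol mice.

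In 3xTg-AD alcohol versus 3xTg-AD mice, the difference of Crebzf was -0.33 ± 0.12 on the log2 scale and did not pass the test (adjusted p = 0.249, edgeR), and the groups overlapped. Between the 2 groups exposed to alcohol, the difference was 0.01 ± 0.12 (adjusted p = 0.981, edgeR).

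9030025P20Rik was at 84.9, 68.8, 63.4, and 63.6 CPM in WT control mice 26, 27, 28, and 36, at 29.6, 33.1, 24.2, and 50.3 CPM in WT alcohol mice 6, 7, 17, and 18, at 41.0, 40.5, 34.99, and 40.5 CPM in 3xTg-AD mice 12, 13, 14, and 21, and at 34.5, 34.9, 32.5, and 34.1 CPM in 3xTg-AD alcohol mice 4, 31, 33, and 34. The WT control mice lay above all other mice, as the choice of the gene favored. The 3xTg-AD alcohol mice were close together (SD 1.05 CPM), and their highest value lay just below the lowest of the 3xTg-AD mice (34.93 against 34.99 CPM). WT alcohol mouse 18 was the highest of its group, and without it the log2 fold change of WT alcohol versus WT control mice went from -1.04 ± 0.16 (SE) to -1.28. The fold change was -0.84 ± 0.16 in 3xTg-AD and -1.05 ± 0.16 in 3xTg-AD alcohol relative to WT control mice.

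Neither tested comparison of 9030025P20Rik passed, at -0.21 ± 0.16 for 3xTg-AD alcohol versus 3xTg-AD mice (adjusted p = 0.685, edgeR) and -0.01 ± 0.16 for 3xTg-AD alcohol versus WT alcohol mice (adjusted p = 0.982, edgeR). The counts were 332 to 1051 UMIs per mouse.

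Gm49179 was at 152.8, 187.9, 151.3, and 145.2 CPM in WT control mice 26, 27, 28, and 36, at 109.4, 113.2, 103.5, and 82.0 CPM in WT alcohol mice 6, 7, 17, and 18, at 147.6, 135.8, 101.7, and 151.4 CPM in 3xTg-AD mice 12, 13, 14, and 21, and at 90.9, 68.6, 55.4, and 69.6 CPM in 3xTg-AD alcohol mice 4, 31, 33, and 34. Its lowest group mean was in 3xTg-AD alcohol mice, at 71.1 ± 14.7 CPM against 102.0 ± 13.9 in WT alcohol mice (SD, n = 4). The log2 fold change relative to WT control mice was -0.65 ± 0.15 (SE) in WT alcohol, -0.25 ± 0.15 in 3xTg-AD, and -1.17 ± 0.15 in 3xTg-AD alcohol mice.

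Gm49179 fell in 3xTg-AD alcohol versus 3xTg-AD mice, by 0.92 on the log2 scale (SE 0.15, adjusted p = 0.0177, edgeR), and these groups did not overlap. As for Dynlt1f, the test used the low values of 3xTg-AD alcohol mice on which the gene was selected. Between the 2 groups exposed to alcohol, which overlapped, the difference of -0.52 ± 0.15 did not pass the test (adjusted p = 0.127, edgeR). The call in 3xTg-AD mice was lost without the same 5 mice, 1 at a time, as that of Dynlt1f (adjusted p from 0.0641 to 0.0838), with fold changes from -1.06 to -0.81 over the 16 fits that each left out 1 mouse.

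Of the 4 genes, 2 were called in 3xTg-AD alcohol versus 3xTg-AD mice, where 0.483% of 16767 genes were called (10 higher and 71 lower), a count that the choice of the genes favored and from which no excess over that share is read, and 0 of 4 were called in 3xTg-AD alcohol versus WT alcohol mice, where 0.942% were called (158 genes, and 394 with DESeq2, which called none of the 4). In the latter comparison, 2348 genes had an unadjusted p under 0.05 in the edgeR fit, among them Gm49179 but none of the other 3. Relative to WT control mice, the comparisons used in the choice, 0.0179% of genes were called in WT alcohol, 0.435% in 3xTg-AD, and 4.06% in 3xTg-AD alcohol mice. Whether the alcohol difference of any of the 4 genes was unequal in WT and 3xTg-AD mice was not tested, because the difference in WT mice was used to choose them.

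Gm42418, a transcript resembling ribosomal RNA, stood at 17914 to 29047 CPM in 3 mice (WT control 26, WT control 27, and 3xTg-AD 12), whereas no other mouse exceeded 4249 CPM. WT control mice 26 and 27 held the 2 highest values of 9030025P20Rik and Gm49179 in their group (68.8 and 84.9 CPM, against 63.4 and 63.6, and 152.8 and 187.9 CPM, against 145.2 and 151.3), but not of Dynlt1f or Crebzf. Without the 3 mice, the fold change of Dynlt1f was -1.79 in WT alcohol versus WT control, -0.48 in 3xTg-AD versus WT control (from -0.74 with all mice), and -1.23 in 3xTg-AD alcohol versus 3xTg-AD mice (adjusted p = 0.0283, edgeR), and that of Gm49179 in the latter was -0.86 (adjusted p = 0.0153, edgeR).

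Nuclei were given a cell class by the markers of that class, which gave a class to 56255 of 114512 nuclei, among them 38811 glutamatergic-like, 4496 GABAergic-like, 4878 astrocyte-like, 3599 oligodendrocyte-like, 1348 OPC-like (oligodendrocyte progenitor), 1390 microglia-like, and 388 endothelial-like nuclei. In 6 of these 7 classes every marker of the list was raised over the other nuclei with a class, and in the glutamatergic-like class 6 of its 7 were, although none was among its 10 leading genes. The nuclei were assigned by these same markers, so their rise was favored by the rule and is no independent check of the classes. A class called Meis2-like, of 961 nuclei, held 554 from WT control mouse 27 (11.2% of its nuclei) and was not used as a class. Its nuclei stayed in the sums over all nuclei. The remaining 58257 nuclei (43.1% to 57.1% of a mouse) had a lower median of 1142 UMIs, against 1956 UMIs in nuclei with a class.

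Dynlt1f was highest in the neuronal and OPC-like classes. Its mean over the 16 mice was 80.7 CPM in glutamatergic-like, 42.9 in GABAergic-like, 45.0 in OPC-like, 20.3 in microglia-like, 18.5 in endothelial-like, 14.9 in oligodendrocyte-like, and 8.61 CPM in astrocyte-like nuclei. Within mice it was lower than in glutamatergic-like nuclei in all 6 other classes, with differences on the log2(CPM + 1) scale of -0.82 ± 0.11 (SE) in GABAergic-like nuclei (lower in 16 of 16 mice), -1.14 ± 0.38 in OPC-like nuclei (15 of 16 mice), and -3.29 to -2.79 in the others (14 to 16 of 16 mice) (two-sided permutation test of the signs of the differences within mice, 100000 resamples, adjusted p of at most 0.000695 over 24 tests). The levels in GABAergic-like and OPC-like nuclei differed by less than their spread over mice (SDs of 22.7 and 33.4 CPM), as did those in microglia-like, endothelial-like, and oligodendrocyte-like nuclei (SDs of 17.96 to 19.7 CPM). Only 15 to 55 UMIs in all stood behind the levels of Dynlt1f in the astrocyte-like, oligodendrocyte-like, microglia-like, and endothelial-like classes.

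Gm49179 and Crebzf were higher in GABAergic-like than in glutamatergic-like nuclei in 16 of 16 mice, by 0.56 ± 0.05 and 0.37 ± 0.05 on the log2 scale (adjusted p = 0.000111 each, permutation test). Gm49179 averaged 183 CPM in GABAergic-like, 150 in OPC-like, 121 in glutamatergic-like, 92.4 in astrocyte-like, 43.8 in oligodendrocyte-like, 36.9 in microglia-like, and 26.1 CPM in endothelial-like nuclei. Its higher level in OPC-like than in glutamatergic-like nuclei held in 10 of 16 mice (0.27 ± 0.09, adjusted p = 0.00985, permutation test). With a stricter rule for the classes, the difference was 0.26 ± 0.14 and did not pass the test (adjusted p = 0.0979). Crebzf averaged 377 CPM in GABAergic-like, 285 in glutamatergic-like, and 246 in OPC-like nuclei, and 118 to 186 CPM in the other 4 classes, each of which was lower than the glutamatergic-like class in 16 of 16 mice.

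9030025P20Rik had its highest mean in OPC-like nuclei, at 79.5 ± 39.4 CPM (SD, n = 16 mice), followed by 62.2 CPM in GABAergic-like, 47.7 in glutamatergic-like, 42.2 in microglia-like, 33.2 in astrocyte-like, 26.8 in endothelial-like, and 22.9 CPM in oligodendrocyte-like nuclei. The OPC-like level was higher than the glutamatergic-like level in 13 of 16 mice (0.63 ± 0.13 on the log2 scale, adjusted p = 0.000695, permutation test) and the GABAergic-like level in 14 of 16 (0.34 ± 0.09, adjusted p = 0.00219), but neither held with the stricter rule for the classes (adjusted p = 0.594 and 0.237). The difference between microglia-like and glutamatergic-like nuclei did not pass the test (-0.48 ± 0.41, adjusted p = 0.284). Camk2a, a neuronal kinase gene looked up after the other values were seen, was at 731 CPM in glutamatergic-like nuclei. It was at 2385 CPM in astrocyte-like, 999 in oligodendrocyte-like, and 962 in microglia-like nuclei, but 438 in GABAergic-like, 622 in OPC-like, and 722 in endothelial-like nuclei. Median depths of the glutamatergic-like, astrocyte-like, and microglia-like nuclei were 2328, 1206, and 834.5 UMIs. Nrgn, looked up beside Camk2a, was at 666 CPM in glutamatergic-like, 600 in GABAergic-like, and 937 to 1370 CPM in the non-neuronal classes. The part of free RNA in the class levels of the 4 genes, glial ones included, was not tested.

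**Figure D3:**
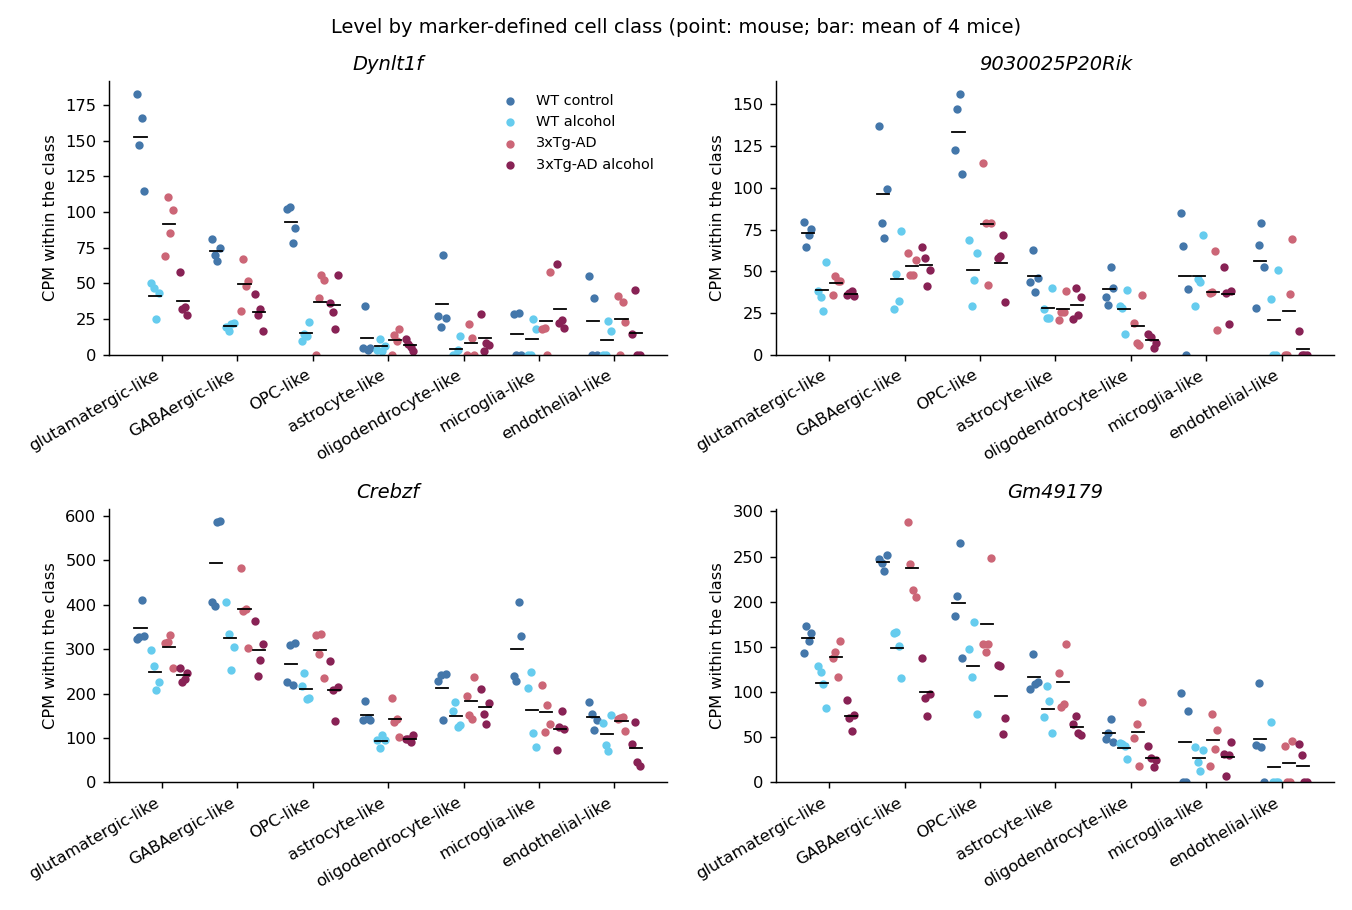
Level of each of the 4 genes (vertical axes, CPM within the class) in 7 marker-defined classes of nuclei, with 1 point per mouse, coloured by group, and bars for the mean of 4 mice. Dynlt1f is highest in glutamatergic-like nuclei (mean of 80.7 CPM over 16 mice) and near 0 in astrocyte-like nuclei (8.61 CPM), and in glutamatergic-like nuclei the WT control points of each gene lie above those of both groups exposed to alcohol.

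In glutamatergic-like, GABAergic-like, and OPC-like nuclei, all WT control mice had higher values of Dynlt1f than all mice exposed to alcohol, whereas these mice overlapped in astrocyte-like, oligodendrocyte-like, microglia-like, and endothelial-like nuclei. Glutamatergic-like nuclei had 152.5 ± 29.0 CPM in WT control, 41.1 ± 11.3 in WT alcohol, 91.5 ± 18.3 in 3xTg-AD, and 37.9 ± 13.5 in 3xTg-AD alcohol mice (SD, n = 4). GABAergic-like nuclei had 72.9 ± 6.46, 19.998 ± 2.36, 49.2 ± 15.0, and 29.7 ± 10.9 CPM in the same order, and OPC-like nuclei 93.0 ± 12.04, 15.1 ± 5.51, 36.9 ± 25.6, and 34.8 ± 15.8 CPM. In glutamatergic-like nuclei, Dynlt1f fell in 3xTg-AD alcohol versus 3xTg-AD mice by 1.23 on the log2 scale (SE 0.25, adjusted p = 0.0447, edgeR), a call that was lost in 11 of the 16 fits that each left out 1 mouse (adjusted p from 0.0503 to 0.183). The difference was -0.74 ± 0.26 in GABAergic-like nuclei (adjusted p = 0.343, edgeR) and -1.05 ± 0.25 in nuclei without a class (adjusted p = 0.0962 with edgeR, and 0.0233 with DESeq2). Dynlt1f did not pass the filter in the 5 non-neuronal classes.

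Gm49179 was the gene with calls in both neuronal classes. In GABAergic-like nuclei it was at 247.1, 242.4, 234.5, and 252.2 CPM in WT control mice 26, 27, 28, and 36, at 164.9, 166.3, 150.6, and 115.3 CPM in WT alcohol mice 6, 7, 17, and 18, at 288.6, 242.2, 213.4, and 205.5 CPM in 3xTg-AD mice 12, 13, 14, and 21, and at 137.9, 93.2, 73.6, and 97.4 CPM in 3xTg-AD alcohol mice 4, 31, 33, and 34. The control mice of both genotypes lay above all mice exposed to alcohol. Between 3xTg-AD alcohol and 3xTg-AD mice, Gm49179 fell by 1.26 on the log2 scale (SE 0.17, adjusted p = 7.99e-06, edgeR), and this call held in each of the 16 fits that left out 1 mouse (adjusted p of at most 0.000348). Like the other tests of the 4 genes within classes, this test used counts that are part of the sums on which the genes were selected. The fits without 1 mouse reuse them, so neither is independent evidence of the direction.

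In glutamatergic-like nuclei, the fall of Gm49179 in 3xTg-AD alcohol versus 3xTg-AD mice was 0.90 (SE 0.15, adjusted p = 0.0152, edgeR), and in nuclei without a class 0.87 (SE 0.17, adjusted p = 0.0388, edgeR). Both calls were lost without single 3xTg-AD or 3xTg-AD alcohol mice, 5 of them in the former (adjusted p from 0.0638 to 0.0873) and 6 in the latter (0.0532 to 0.177). In astrocyte-like, oligodendrocyte-like, and OPC-like nuclei, the differences were -0.81 ± 0.22, -0.99 ± 0.37, and -0.81 ± 0.32 and did not pass the test (adjusted p = 0.137, 0.821, and 0.697, edgeR). Gm49179 did not pass the filter in microglia-like or endothelial-like nuclei.

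Crebzf and 9030025P20Rik were not called in any class. For 3xTg-AD alcohol versus 3xTg-AD mice, Crebzf differed by -0.31 ± 0.12 in glutamatergic-like (adjusted p = 0.291, edgeR), -0.42 ± 0.16 in GABAergic-like (0.423), -0.48 ± 0.19 in astrocyte-like (0.715), and -0.50 ± 0.24 in OPC-like nuclei (0.871). 9030025P20Rik differed by -0.19 ± 0.17 in glutamatergic-like (adjusted p = 0.744, edgeR) and 0.01 ± 0.27 in GABAergic-like nuclei (0.997). In endothelial-like nuclei none of the 4 genes passed the filter.

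These counts, too, were favored by the choice of the genes and are given beside the share of all genes called. In 3xTg-AD alcohol versus 3xTg-AD mice, 2 of the 4 genes were called in glutamatergic-like nuclei, where 0.251% of 14712 genes were called, 1 in GABAergic-like nuclei (0.1% of 8981 genes), 1 in nuclei without a class (0.249% of 14889 genes, and 2 of the 4 with DESeq2), and 0 in the 5 non-neuronal classes (0.0354% of 19799 tests together, and 0 with DESeq2). In the non-neuronal classes, Gm49179 (astrocyte-like, oligodendrocyte-like, and OPC-like) and Crebzf (astrocyte-like and OPC-like) had an unadjusted p under 0.05. The share of all genes under that unadjusted threshold was not counted by class, so no excess is read from it. In 3xTg-AD alcohol versus WT alcohol mice, none of the 4 was called in glutamatergic-like (0.646%), GABAergic-like (0.557%), unassigned (0.826%), or non-neuronal nuclei (0.354%) with edgeR. At an unadjusted p under 0.05 were Gm49179 in glutamatergic-like, GABAergic-like, and unassigned nuclei and Dynlt1f in GABAergic-like nuclei. In that comparison, the differences of Gm49179 were -0.53 ± 0.15 in glutamatergic-like (adjusted p = 0.105, and 0.0481 with DESeq2) and -0.58 ± 0.17 in GABAergic-like nuclei (adjusted p = 0.112, edgeR). Dynlt1f in GABAergic-like nuclei was at 0.55 ± 0.27 (adjusted p = 0.556, edgeR).

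**Figure D4:**
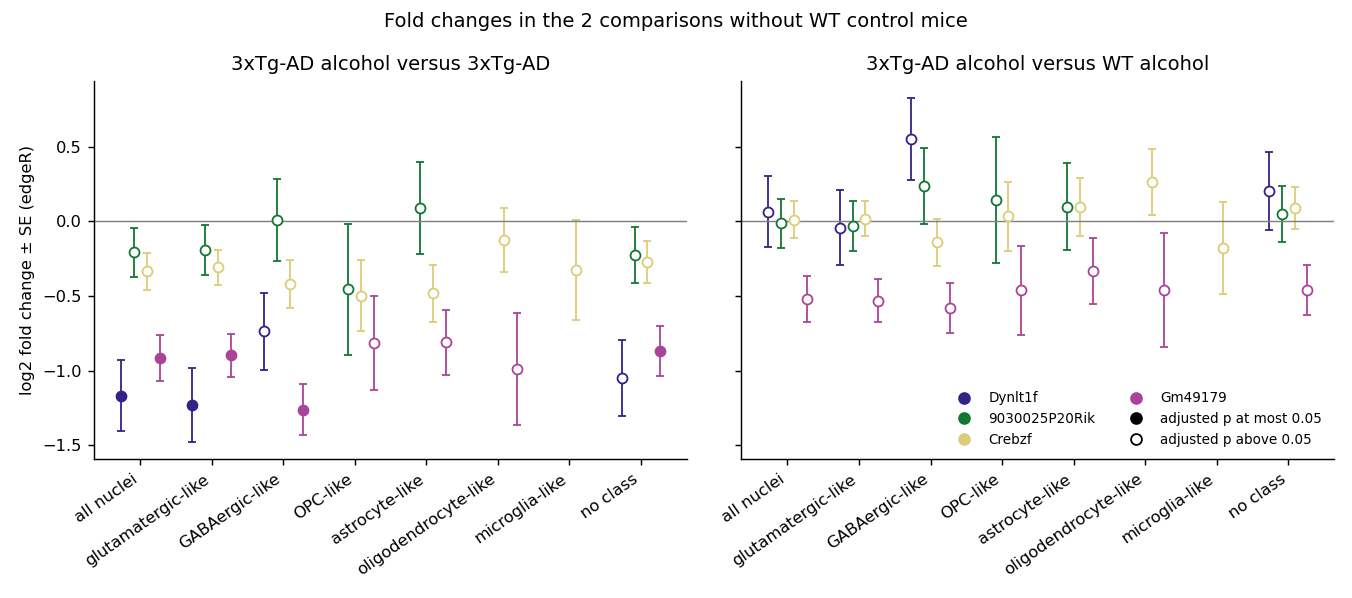
Log2 fold changes (vertical axis, edgeR, error bars for the SE) of the 4 genes over all nuclei and in each class in which they passed the filter, for 3xTg-AD alcohol versus 3xTg-AD mice and 3xTg-AD alcohol versus WT alcohol mice, with filled points for an adjusted p of at most 0.05. The filled points are those of Dynlt1f over all nuclei and in glutamatergic-like nuclei and those of Gm49179 over all nuclei, in both neuronal classes, and in nuclei without a class.

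Glutamatergic-like nuclei were further divided by layer markers, which gave 711 to 2320 nuclei per subclass. Most of the 38811 glutamatergic-like nuclei took none of the 5 subclasses described here. Over all 16 mice, Dynlt1f had from 84 UMIs (L5/6 NP-like) to 605 UMIs (L2/3 IT-like) per subclass. The choice of Dynlt1f favored the differences between WT alcohol and WT control mice that follow. Dynlt1f was lower in WT alcohol than in WT control mice in each of the 5 subclasses, with group means of 160.0 and 36.3 CPM in L2/3 IT-like, 142.3 and 41.2 in L5 IT-like, 126.1 and 16.4 in L5 ET-like, 127.8 and 38.8 in L5/6 NP-like, and 153.9 and 39.2 CPM in L6 CT-like nuclei, and the values of these groups did not overlap in any of them. Gm49179 had its highest level among the subclasses in L6 CT-like nuclei, the corticothalamic neurons, at 253.6 ± 70.7 CPM in WT control, 185.9 ± 30.7 in WT alcohol, 226.6 ± 34.5 in 3xTg-AD, and 110.2 ± 44.5 in 3xTg-AD alcohol mice (SD, n = 4). In L2/3 IT-like nuclei, it was at 131.7 ± 16.5, 92.6 ± 27.6, 114.9 ± 24.6, and 52.6 ± 17.2 CPM in the same order. The subclasses were not tested.

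The share of a mouse's nuclei in the glutamatergic-like class averaged 32.1% ± 6.93 in WT control, 34.2% ± 1.39 in WT alcohol, 35.8% ± 1.73 in 3xTg-AD, and 33.4% ± 3.70 in 3xTg-AD alcohol mice, and that in the GABAergic-like class 3.88% ± 0.59, 4.79% ± 0.57, 3.40% ± 0.54, and 3.60% ± 0.47 (SD, n = 4). In 3xTg-AD alcohol mice, the astrocyte-like share was 5.36% ± 0.832, the OPC-like share 1.54% ± 0.273, and the microglia-like share 1.82% ± 0.747, against 3.97% ± 1.01, 0.97% ± 0.163, and 0.976% ± 0.247 in 3xTg-AD, 3.98% ± 1.11, 1.21% ± 0.251, and 1.28% ± 0.539 in WT alcohol, and 3.52% ± 0.567, 1.003% ± 0.094, and 0.821% ± 0.378 in WT control mice. The OPC-like shares of 3xTg-AD alcohol mice (lowest 1.30%) lay above those of 3xTg-AD (highest 1.19%) and WT control mice (highest 1.13%), and their astrocyte-like shares (lowest 4.40%) above those of WT control mice (highest 3.90%). The part of these shares in the sums over all nuclei was not tested.

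The neighbours of the 4 genes on the chromosome were tested in all 5 comparisons. Of 24 neighbours, the 3 nearest genes of the table on each side of each gene, 22 passed the filter, and 1 of them was called in 1 of the 5 comparisons. This was Gm3435, which rose in 3xTg-AD alcohol versus WT alcohol mice (0.80 ± 0.15, adjusted p = 0.0152, edgeR), where 0.942% of all genes were called, and which shares sequence with 9030025P20Rik. Gm3448, a copy of the Tctex-type gene Tcte3 on the minus strand whose near end lies 4215 bases from 9030025P20Rik, was at 99.5 ± 34.9 CPM in WT control, 53.1 ± 18.7 in WT alcohol, 68.3 ± 20.8 in 3xTg-AD, and 67.4 ± 12.6 in 3xTg-AD alcohol mice and did not pass the test (lowest adjusted p = 0.233, edgeR). Dzip1, which is transcribed across Gm49179 from the other strand, had group means of 46.5 to 50.9 CPM and fold changes between -0.13 and 0.13, and Uggt2, farther along, was lowest in WT alcohol mice (115.4 ± 15.9 CPM, against 174.3 ± 39.0 in WT control mice) without passing the test (lowest adjusted p = 0.176, edgeR). On either side of Crebzf, the mitochondrial complex I assembly gene Tmem126b and its relative Tmem126a had fold changes from -0.14 to 0.10, and Picalm, an endocytic adaptor gene at an Alzheimer's disease locus, from -0.09 to 0.14.

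**Figure D5:**
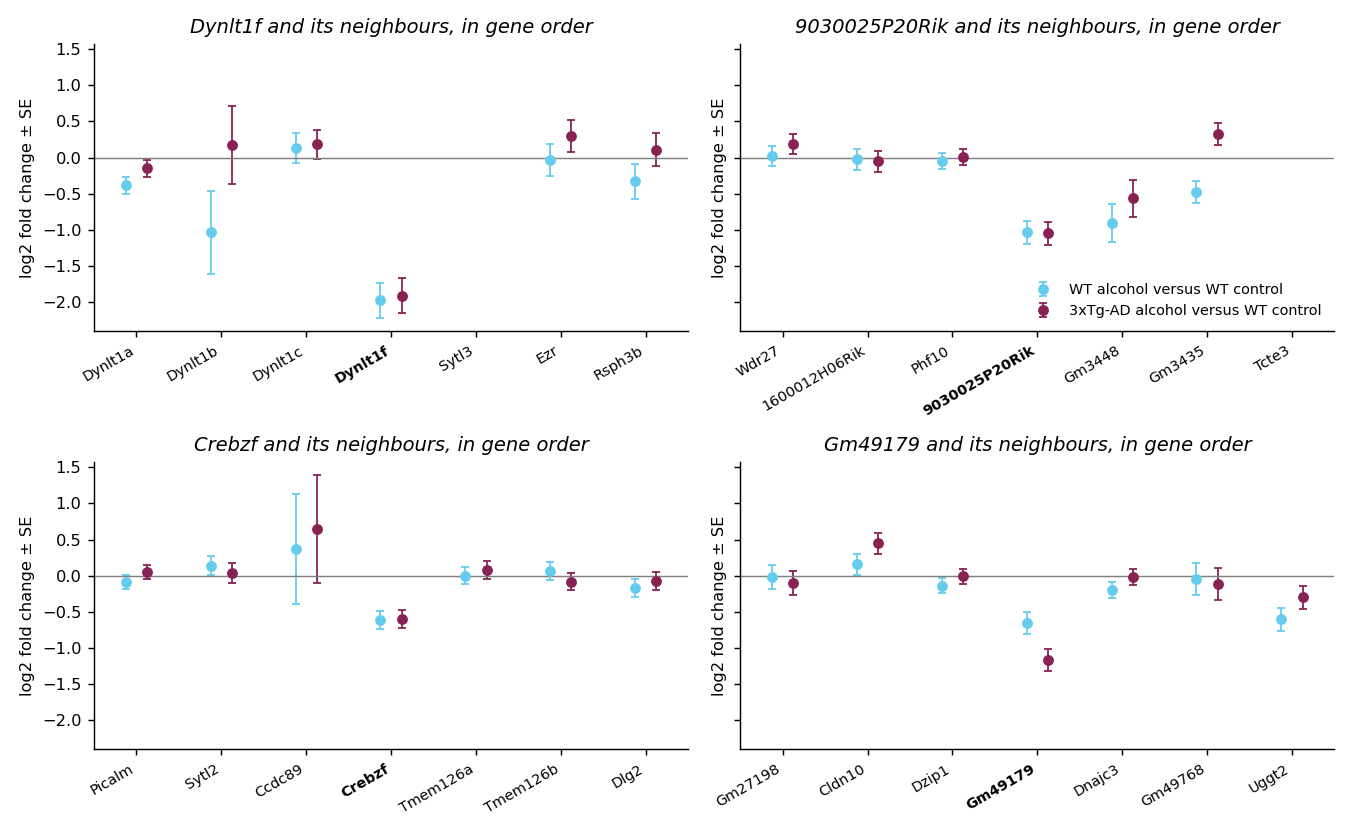
Log2 fold changes (vertical axis, edgeR, error bars for the SE) of each of the 4 genes and of its neighbours in the order of the chromosome, for WT alcohol and 3xTg-AD alcohol versus WT control mice. The values of Dynlt1f (-1.98 and -1.91) were used to choose it, and lie below those of its neighbours Dynlt1c (0.13 and 0.18), Dynlt1b (-1.04 and 0.18), and Dynlt1a (-0.38 and -0.15). Beside 9030025P20Rik (-1.04 and -1.05), Gm3448 is at -0.90 and -0.57, and beside Gm49179 (-0.65 and -1.17), Dzip1 is at -0.13 and -0.01 and Uggt2 at -0.60 and -0.30.

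The other genes of the dynein motor were tested as a list. Among 29 genes of cytoplasmic dynein, dynactin, and their adaptors, all tested, 2 fell in 3xTg-AD alcohol versus WT control mice, where 4.06% of 16767 genes were called. These were Dctn5, a subunit of the pointed-end complex of dynactin (-0.54 ± 0.13, adjusted p = 0.0247, edgeR), and Dync1h1, the heavy chain that holds the motor (-0.43 ± 0.11, adjusted p = 0.0305, edgeR). Both calls were lost without the 3 mice that were high in Gm42418. At an unadjusted p under 0.05 were 8 of the 29 genes, and DESeq2 called 1 higher and 5 lower in this comparison, beside 3370 and 1161 of all genes. Dctn5 also fell in 3xTg-AD alcohol versus WT alcohol mice (-0.58 ± 0.13, adjusted p = 0.0318, edgeR), from 41.4 ± 4.05 to 27.6 ± 0.161 CPM (SD, n = 4). It was the 1 gene of the 29 called there by edgeR, beside 0.942% of all genes. In that comparison 6 of the 29 had an unadjusted p under 0.05 and DESeq2 called 2 lower, beside 2348 and 394 of all genes. In 3xTg-AD alcohol versus 3xTg-AD mice, edgeR called 0 of the 29 genes (5 at an unadjusted p under 0.05) and DESeq2 1, which was lower, beside 2013 of all genes at an unadjusted p under 0.05 and 382 called by DESeq2. The median log2 fold change of the 29 genes lay between -0.065 and 0.043 over the 5 comparisons, against -0.009 to 0.009 for all genes tested. The 3 genes with the most UMIs of this list, Dync1i2, which encodes an intermediate chain, Pafah1b1, the LIS1 regulator of the motor, and Dynll1, a light chain of another family, did not pass the test in any comparison.

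In WT alcohol versus WT control mice, 0 of the 29 genes were called by edgeR or DESeq2 (8 at an unadjusted p under 0.05), where edgeR called 3 genes in all (0.0179%, with 2377 genes at an unadjusted p under 0.05, and 130 called by DESeq2). In 3xTg-AD versus WT control mice, edgeR called 0 of the 29 (1 at an unadjusted p under 0.05, and 1 called higher by DESeq2) and 73 genes in all (0.435%, with 1372 at an unadjusted p under 0.05, and 181 called by DESeq2). Of the Tctex-type light chain genes of the list other than Dynlt1f, which did not include Gm3448, 8 were in the table and 5 were tested, and none was called by edgeR without a covariate or by DESeq2 in any of the 5 comparisons (3, 0, 0, 1, and 2 at an unadjusted p under 0.05, in the order of WT alcohol, 3xTg-AD, and 3xTg-AD alcohol versus WT control mice, then 3xTg-AD alcohol versus 3xTg-AD and versus WT alcohol mice), with fold changes from -1.04 to 1.21, both of Dynlt1b. With the share of ribosomal RNA-like UMIs as a covariate, edgeR called 1 of the 5, higher, in 3xTg-AD alcohol versus 3xTg-AD mice, where it called 902 genes in all.

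Among 24 genes of CREB/ATF factors, HCF partners of Crebzf, and the unfolded protein response, 21 were tested and 0 were called by edgeR in any of the 5 comparisons (lowest adjusted p = 0.0589, in 3xTg-AD alcohol versus WT control mice). At an unadjusted p under 0.05 were 0, 2, 3, 0, and 3 of them, in the same order of comparisons, beside 2377, 1372, 3370, 2013, and 2348 of the 16767 genes tested, and 1 was called higher in 3xTg-AD alcohol versus WT control mice by DESeq2 (1161 genes in all) and, without the 3 mice high in Gm42418, by edgeR (659 in all). Hspa5, the chaperone of the endoplasmic reticulum that is induced by unfolded proteins, had group means of 156.6 to 171.2 CPM with SDs of 19.4 to 41.7, and the bZIP factors Atf2 and Atf4 had group means of 75.9 to 85.9 and 74.7 to 83.3 CPM. The median of the 21 fold changes lay between 0.024 and 0.134 over the 5 comparisons.

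The genes whose levels over the 16 mice were most like those of each gene are given as a description, since the points share the same 4 groups. For Dynlt1f they were Herc2, a ubiquitin ligase gene (Pearson r = 0.91 of log2 CPM, Spearman rho = 0.87), 1700109K24Rik (0.89 and 0.90), Iqcg (0.89 and 0.91), Gm31172 (0.87 and 0.91), and Crebzf (0.87 and 0.85). For 9030025P20Rik they were the zinc finger gene Zfp983 on the same chromosome (r = 0.91, rho = 0.88), Timmdc1 (0.85 and 0.71), Dynlt1f (0.84 and 0.81), Elmsan1 (0.80 and 0.81), and Arhgap20os (0.79 and 0.60). For Crebzf they were Cep350 (r = 0.89, rho = 0.92), Farp1 (0.88 and 0.88), Gm20089 (0.87 and 0.86), Mdn1 (0.87 and 0.88), and Trappc11 (0.87 and 0.88). For Gm49179 they were Gm16892 (r = 0.945, rho = 0.965), 1700109K24Rik (0.94 and 0.91), Macrod2os1 (0.93 and 0.92), Nudt5, which encodes a hydrolase of ADP-ribose (0.92 and 0.90), and Lrrc19 (0.90 and 0.83).

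Once the group means were removed, these values were lower. Between Dynlt1f and 9030025P20Rik, r went from 0.84 to 0.50, between Dynlt1f and Crebzf from 0.87 to 0.37, between Dynlt1f and Gm49179 from 0.81 to 0.34, and between 9030025P20Rik and Gm49179 from 0.60 to -0.13 (16 mice). Farp1 with Crebzf (0.76) and 1700109K24Rik with Gm49179 (0.76) had the highest values within groups among the genes named.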

How the data were processed

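Single nuclei of the medial PFC of 16 male mice (4 per group) were sequenced with a 10x Genomics 3′ kit. The authors aligned the reads to mm10 with Cell Ranger 6.1.1, which uses STAR, and deposited the UMI counts per gene and nucleus as a single table, not normalized, with 19999 genes and 114512 nuclei. The handling of strand, introns, and reads that fit several genes is not given in the sources used here. No column of values was left unused, and all nuclei were kept. Doublets were not called. Of 112806 different barcodes, 1694 (1.50%) occurred in more than 1 mouse.

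Groups were taken from the labels. Counts were summed per mouse over all nuclei, and per mouse and cell class where a mouse had at least 10 nuclei of it. The sums of all 16 mice were fitted in R 4.3.3 with edgeR 4.0.16 (TMM, filterByExpr, robust quasi-likelihood test, a mean per group), with Benjamini-Hochberg adjustment over the genes of a fit and a call at an adjusted p of at most 0.05. DESeq2 1.42.0 was an alternative. A nucleus took a class other than glutamatergic-like with at least 3 UMIs of at least 2 markers and at least 3 times the expected share. It also needed at least 2 times the next such class (4 times under the stricter rule), without comparison to the glutamatergic-like value. A glutamatergic-like nucleus needed the same UMIs and markers and at least 0.8 times the expected share. Every other class had to stay under 3 times its expected share (a lower limit under the stricter rule). Each also had to stay within 2 times the glutamatergic-like value, so another class could score higher. These limits were set after the data were seen, and the class names were not transferred from a reference. Class levels were compared as log2(CPM + 1), with a pseudocount of 10 CPM as an alternative. SDs and SEs over mice include the counting error of each mouse.

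The 4 genes and the gene lists were chosen with earlier results of these data known. Named were the 4 genes, from each list the genes that passed the test and the 3 with the highest mean level, the 3 nearest table genes on each side, and the 5 genes of highest Pearson r over 16 mice. Transcripts and positions came from GENCODE M21, and promoter windows (250 bases before to 50 after the start) from RefSeq. Promoter windows were matched for Dynlt1f, Dynlt1c, and Crebzf. On counts simulated for the 3xTg-AD alcohol versus WT control comparison over 16767 genes, the fit recovered 86 of 100 genes changed 2-fold and 42 of 100 changed 1.5-fold. Python 3.11.15, numpy 2.4.6, scipy 1.17.1, pandas 2.3.3, and matplotlib 3.10.9 were used.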

Additional observations from a re-analysis of the deposited data

Results flagged for a closer look

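In each group of 4 mice, the highest and lowest values of the 4 genes were compared with the others by Dixon's ratio at its 95% critical value over all nuclei and in the neuronal classes, in 48 groups in all, of which chance would mark about 1 in 20. The ratio was passed 4 times. Dynlt1f was low in WT alcohol mouse 17 (19.6 CPM over all nuclei, against 34.2 to 35.1 CPM in the rest of its group) and high in 3xTg-AD alcohol mouse 4 (49.8 CPM, against 25.6 to 26.96 CPM). 9030025P20Rik was low in 3xTg-AD mouse 14 (34.99 CPM, against 40.5 to 41.0 CPM). Crebzf was high in the glutamatergic-like nuclei of WT control mouse 28 (411.6 CPM, against 321.9 to 329.2 CPM).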

How the results depend on the processing

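The fits were repeated with DESeq2, library size scaling, no filter on low counts, a filter on nuclei, the share of ribosomal RNA-like UMIs (Gm42418 and AY036118) as a covariate, without the 3 mice high in Gm42418, and without each mouse in turn. The falls of Dynlt1f and Gm49179 in 3xTg-AD alcohol versus 3xTg-AD mice over all nuclei kept their direction throughout. They passed the test except without single mice, where the calls were lost in 5 of 16 fits for each gene. In those 16 fits, the falls ranged from -1.46 to -1.08 and from -1.06 to -0.81. All these fits reuse mice whose low values favored the choice of the genes, so they are no independent evidence of the direction. No paired analysis was possible because the groups share no replicate numbers.

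Counts of genes called moved from 3 to 130 (DESeq2) and 1 (covariate) in WT alcohol versus WT control, from 73 to 181 (DESeq2) and 45 (without the 3 mice) in 3xTg-AD versus WT control, from 681 to 1161 (DESeq2) in 3xTg-AD alcohol versus WT control, from 81 to 382 (DESeq2), 38 (library size), 902 (covariate), and 457 (without the 3 mice) in 3xTg-AD alcohol versus 3xTg-AD, and from 158 to 394 (DESeq2), 330 (covariate), and 323 (without the 3 mice) in 3xTg-AD alcohol versus WT alcohol mice. Leaving out 1 mouse gave 1 to 5, 35 to 105, 280 to 867, 0 to 244, and 49 to 182 in the same order. The cause was not tested.

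DESeq2 gave no adjusted p for Dynlt1f or 9030025P20Rik in GABAergic-like nuclei in 3xTg-AD alcohol versus 3xTg-AD mice. Values near 0 changed sign. In 3xTg-AD alcohol versus WT alcohol mice these were 9030025P20Rik (0.0005 with DESeq2, 0.0409 with the covariate) and Crebzf (-0.0224 with library size), and in 3xTg-AD alcohol versus 3xTg-AD mice 9030025P20Rik in GABAergic-like nuclei (-0.0028 with DESeq2). With the covariate, 9030025P20Rik in 3xTg-AD alcohol versus WT control mice was at -0.8441. Leaving out 1 mouse gave, over all nuclei, -1.2836 to -0.8973 for 9030025P20Rik in WT alcohol versus WT control mice, and in 3xTg-AD alcohol versus WT alcohol mice -0.2218 to 0.1556 for Dynlt1f, -0.1512 to 0.2352 for 9030025P20Rik, and -0.0404 to 0.0697 for Crebzf. In glutamatergic-like nuclei the last 3 were -0.3227 to 0.0626, -0.1740 to 0.2284, and -0.0427 to 0.0891, and the falls of Dynlt1f and Gm49179 in 3xTg-AD alcohol versus 3xTg-AD mice -1.5147 to -1.1252 and -1.0197 to -0.7958.

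In the other classes, leaving out 1 mouse gave, for 3xTg-AD alcohol versus 3xTg-AD mice, -0.1006 to 0.1186 (9030025P20Rik, GABAergic-like), -0.0909 to 0.2861 (9030025P20Rik, astrocyte-like), -0.2440 to 0.0041 (Crebzf, oligodendrocyte-like), and -1.0108 to -0.7698 (Gm49179, unassigned). For 3xTg-AD alcohol versus WT alcohol mice it gave, for 9030025P20Rik, -0.0792 to 0.3352 (astrocyte-like), -0.0030 to 0.2909 (OPC-like), and -0.1015 to 0.2707 (unassigned), for Crebzf, -0.1012 to 0.1898 (OPC-like) and -0.4060 to 0.0521 (microglia-like), and for Dynlt1f, -0.0595 to 0.3284 (unassigned). With the stricter class rule, 9030025P20Rik was 0.1434 higher in GABAergic-like and 0.2912 in OPC-like than in glutamatergic-like nuclei, and Gm49179 0.2610 in OPC-like nuclei, none past the test. Depth limits Dynlt1f most, with 15 to 71 UMIs per non-neuronal class.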
